A study of Mus with 3 samples.

Results

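Collagen and laminin genes build the extracellular matrix, and their signals were compared in the hippocampus of mice that received water, an amyloid peptide, or the peptide with shochu oil. A gene was a member when its name on the array was Col, a number, a and a number, or Lama, Lamb or Lamc with a number. There were 52 such genes among 23756 named genes, with 76 of the 39429 gene probes. A gene was measured when at least 1 of its probes had a signal to noise score of 2.6 or more on all 3 arrays, and its brightest such probe then stood for it. Of the 52 members 32 were measured, among 13200 measured genes in all.

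The animals were male Slc:ddY mice aged 6 weeks, an outbred stock, in 3 groups of 10. The normal control group (NCO) took distilled water by mouth for 15 days and was given 5 µL of distilled water, by a route the labels do not spell out. The injected control group (ACO) took the same vehicle by mouth and received 10 nmol of Aβ25-35, a toxic fragment of the peptide that forms amyloid plaques, in 5 µL into the cerebral ventricles on day 8. The shochu oil group (ASO) received the same injection and shochu oil, which comes from a spirit distilled from sweet potato, at 2000 mg/kg/day by mouth over the 15 days. No group received the oil without the peptide. After a Y-maze test on day 16, a measure of short-term memory, hippocampal RNA was pooled from 2 mice per set and then in equal amounts from the 5 sets. The 200 ng of pooled RNA from each group carried the dye Cy3 and went onto 1 array. With no replicate arrays no test was possible, and every difference below is between 3 pools.

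Fibrillar collagens assemble into the banded fibres that give connective tissue its strength. In the brain they are found mainly in the meninges and around larger vessels. Basement membranes are thin sheets under endothelium, around pericytes and at the brain surface; they are a network of collagen IV bound to a network of laminins, each laminin being made of 1 α, 1 β and 1 γ chain. Basement membrane proteins are made largely by endothelial cells, pericytes, fibroblasts and astrocytes. Both sorts of matrix protein have been studied around vessels and plaques in amyloid disease.

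Signals are background-corrected intensities scaled so that the 75th percentile was equal on the 3 arrays. Differences are given as log2(signal + 50), so those of dim probes are drawn towards 0. Folds, with the 1.2-fold and 2-fold marks, are also of signal + 50 unless called plain ratios. Between 50.9% and 53.7% of probes were well above background, with most on ASO. All 14 listed markers of hippocampal neurons were measured on all 3 arrays. Probes of 5 spike-in controls, RNAs that do not come from the tissue, were lower on ACO than on NCO by a median log2 of -0.16 and were 0.46 higher on ASO than on ACO. Whether this bears on the members was not tested. Among 249 probes with 10 spots each, differences varied over spots with a median SD of 0.08 for ACO minus NCO, 0.09 for ASO minus ACO and 0.10 for ASO minus NCO. Across the 2934 genes with 2 measured probes, the probes' differences lay apart by a median of 0.10 in the first of these comparisons and 0.16 in both others. Those values describe spots and probes on single arrays and hold nothing of the spread between mice. In bulk tissue, fewer cells of a type and less RNA per cell cannot be told apart.

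Members lay on both sides of 0 in each comparison, and more of them were 1.2-fold apart where the oil array was compared, as was so for all genes. From NCO to ACO, no member was at least 1.2-fold higher and 2 were at least 1.2-fold lower, Col11a2 and Col9a2, where 2.78% of all measured genes were that much higher and 2.7% that much lower. From ACO to ASO, 5 of the 32 were at least 1.2-fold higher and 4 lower, beside 10.1% and 9.45% of all genes. From NCO to ASO, 6 were higher and 3 lower by that fold, beside 10.3% and 8.39%. At so few members these counts are not far from what the shares of all genes come to. No member reached 2-fold in any comparison. Of all genes 0.0379% did so upwards and 0.0379% downwards from NCO to ACO, 0.189% and 0.0682% from ACO to ASO, and 0.189% and 0.0909% from NCO to ASO. By any amount, 20 members were higher and 12 lower from NCO to ACO, beside 51.9% and 48.1% of all genes. From ACO to ASO 21 were higher and 11 lower, beside 46.6% and 53.4%, and from NCO to ASO 19 and 13, beside 46.9% and 53.1%. ASO minus ACO and ASO minus NCO share the ASO array, so they do not repeat each other independently.

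**Figure D1:**
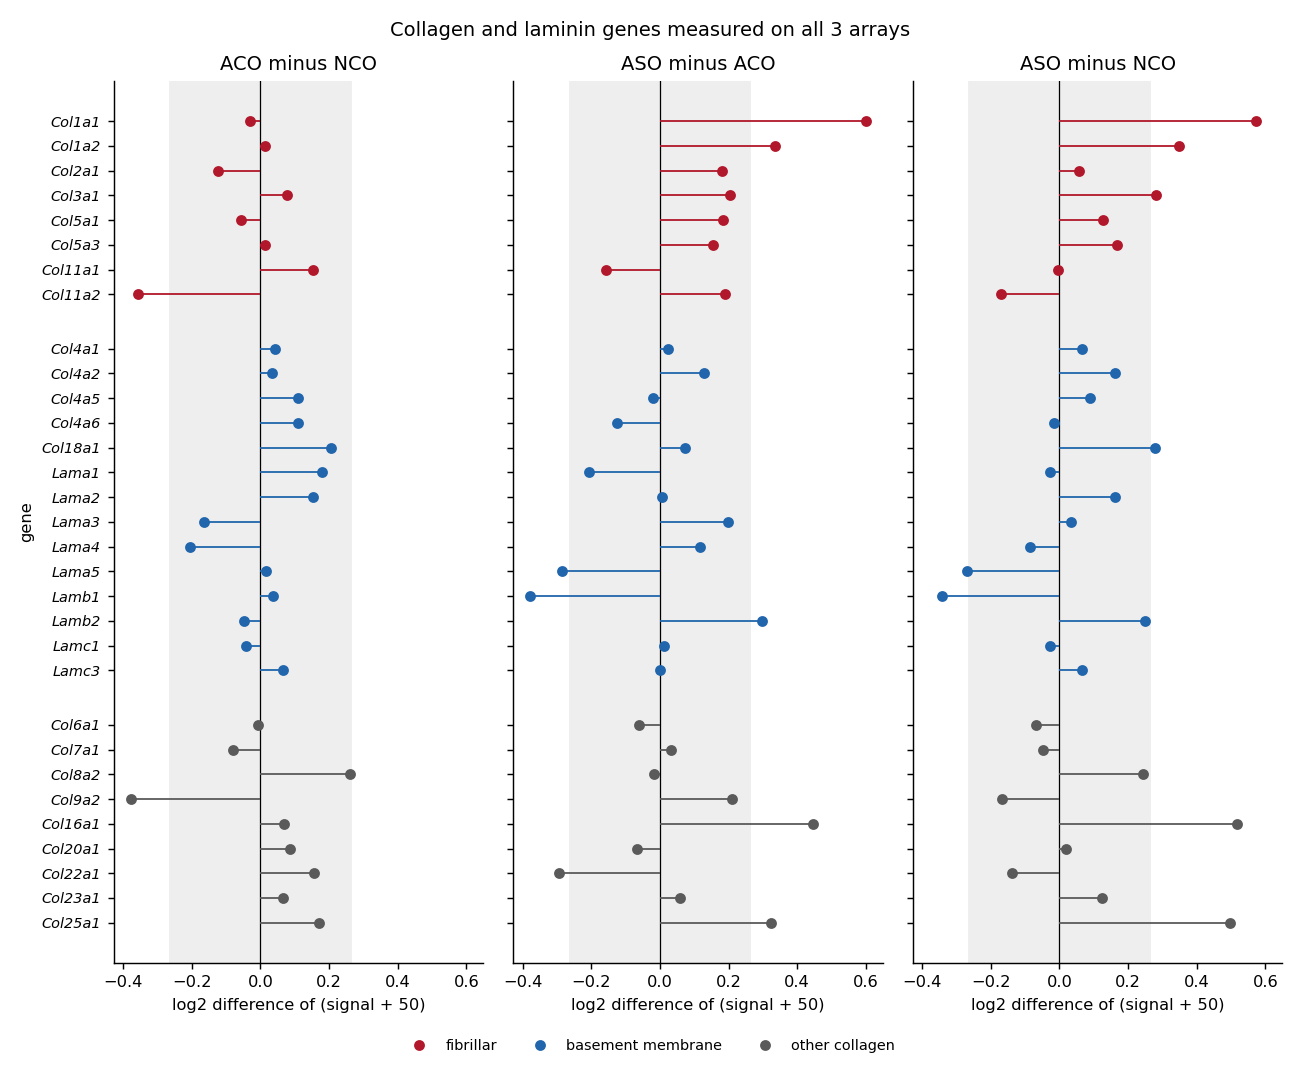
Log2 difference of (signal + 50) between pairs of arrays, 1 point per measured gene, for 8 fibrillar, 14 basement membrane and 9 other members. The grey band covers differences under 1.2-fold. In ASO minus ACO, 7 of the 8 fibrillar points lie right of 0, while the basement membrane points lie on both sides, with Lamb1 at -0.38 and Lamb2 at 0.30.

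Most fibrillar collagens had a higher signal on the oil array, few of them by much. Of 8 measured, 7 were higher on ASO than on ACO, 2 of these (Col1a1 and Col1a2) by at least 1.2-fold, with a median log2 difference of 0.19, beside -0.02 for all genes. Against NCO, 6 of 8 were higher on ASO, and their median was 0.15, beside -0.02 for all genes. Between ACO and NCO 4 were higher and 4 lower, and the median was -0.01. The oil array held the highest signal for 6 of the 8, where it did so for 36.8% of all genes.

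Collagen I, the main fibril-forming collagen, showed the greatest differences of the class in both comparisons with ASO. Col1a1, its α1 chain, had a signal of 407 (NCO), 398 (ACO) and 629 (ASO). The water and peptide arrays lay close together and the oil array stood above them, by 0.60 over ACO and 0.57 over NCO, or 1.52-fold and 1.49-fold. Of 13200 genes, 201 were at least as far higher from ACO to ASO, where Col1a1 was the highest of the 32 members. Col1a2, the α2 chain that joins Col1a1 in the same triple helix, had 1322, 1335 and 1697 on NCO, ACO and ASO. The pattern was the same and smaller, with 0.34 over ACO and 0.35 over NCO.

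Col3a1 encodes collagen III, which forms fibres together with collagen I in vessel walls and meninges. Its signal was 238 (NCO), 253 (ACO) and 299.6 (ASO), so that ASO was 0.21 above ACO and 0.28 above NCO. Collagen V sits inside collagen I fibrils and limits their width. Its chain Col5a1 had 168, 160.1 and 188 on NCO, ACO and ASO, and Col5a3 had 209.9, 212 and 242. Both were highest on ASO, by 0.18 and 0.15 over ACO, differences of the size by which probes of 1 gene disagreed. Col5a2, the other collagen V chain, was well above background on ACO only, with dim signals of 48.1, 50.8 and 54.6 on NCO, ACO and ASO.

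The cartilage-type fibrillar collagens were mixed. Col2a1, which forms cartilage fibrils, was dim at 63.0, 53.6 and 67.5 on NCO, ACO and ASO, and so was highest on ASO as well. The collagen XI chains were not. Col11a1, which lies within cartilage fibrils, had 135, 156 and 135, and was the 1 fibrillar member lower on ASO than on ACO, by -0.16. Its partner chain Col11a2 had 153, 109 and 131, so that the peptide array was lowest, at -0.36 against NCO, and ASO lay between the others. From NCO to ACO, 136 of 13200 genes were at least as low as Col11a2, which was the lowest of the 8 fibrillar members there. Col24a1 and Col27a1, later-described fibrillar collagens, were well above background on no array.

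**Figure D2:**
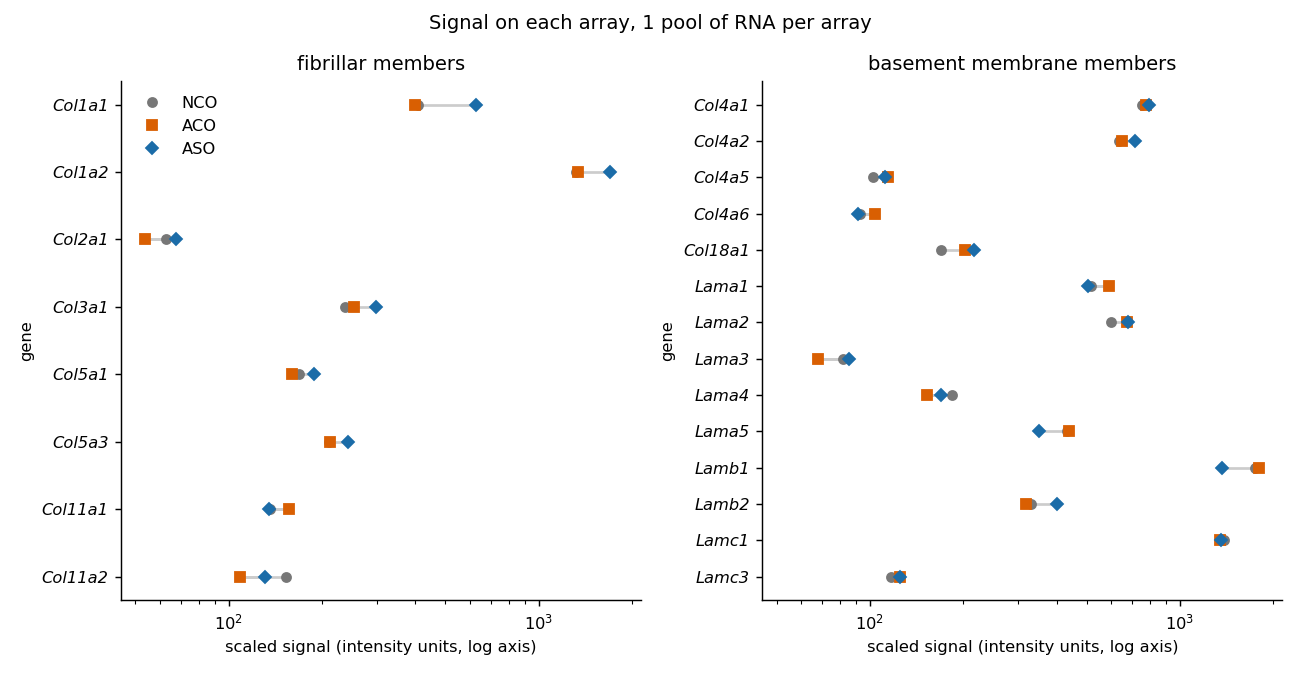
Scaled signal on each array on a log axis, for the fibrillar (left) and basement membrane (right) members, with NCO as circles, ACO as squares and ASO as diamonds. Symbols can be compared only within a row, since probes differ in brightness; Col1a1 and Col1a2 have ASO at 629 and 1697 to the right of overlapping NCO and ACO symbols, and Lamb1 has ASO to the left.

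The basement membrane members as a class stood near 0 in every comparison. Of 15 measured, 9 were higher on ASO than on ACO and 6 lower, with a median of 0.01. From NCO to ASO 8 were higher and 7 lower, with a median of 0.03, and from NCO to ACO 10 were higher and 5 lower, with a median of 0.04. The median of the fibrillar class lay 0.18 above that of the basement membrane class in ASO minus ACO, 0.11 above it in ASO minus NCO and -0.04 from it in ACO minus NCO. These gaps between classes are descriptions of single pools.

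Collagen IV forms the network of the basement membrane. Its Col4a1 and Col4a2 chains, which make up the form found in nearly all vessels, are neighbouring genes in the RefSeq annotation. Col4a1 was printed at 10 spots, the only measured member with more than 1, and had mean signals of 754, 779 and 792 on NCO, ACO and ASO. Over those spots the difference was 0.04 ± 0.07 (SD, 10 spots) for ACO minus NCO, 0.02 ± 0.08 for ASO minus ACO and 0.07 ± 0.10 for ASO minus NCO. Each mean was smaller than its SD over spots. Col4a2 had 634, 649 and 714, with ASO 0.13 above ACO.

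The minor collagen IV chains Col4a5 and Col4a6, also neighbours, had signals of 102, 114 and 112 and of 92.8, 104 and 91.3 on NCO, ACO and ASO. All 4 measured collagen IV chains were higher on ACO than on NCO, by 0.03 to 0.11, and from ACO to ASO 2 were higher and 2 lower. Col18a1 carries heparan sulfate and is the source of the fragment endostatin. It had 169, 203 and 216 on NCO, ACO and ASO, and was 0.28 higher on ASO than on NCO.

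**Figure D3:**
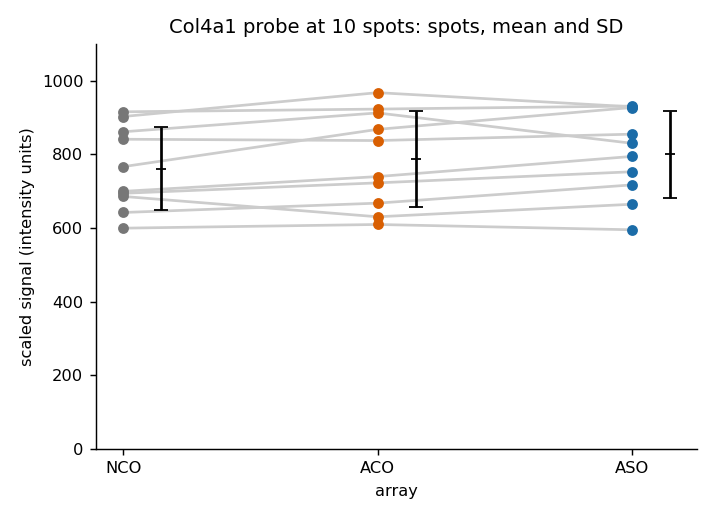
Scaled signal of the Col4a1 probe at its 10 spots on each array, with grey lines joining the same spot position and the mean ± SD over spots beside the points. The spots span 600 to 916 on NCO, 610 to 968 on ACO and 595 to 931 on ASO, so the arrays overlap over nearly their whole range.

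Among the laminins, 10 of 11 chains were measured. Lama5 and Lamb1 lay 1.2-fold or more below both ACO and NCO on the ASO array, and Lamb2 lay above ACO by that fold. Lamc1, the γ chain of most laminins, had 1383, 1343 and 1355 on NCO, ACO and ASO, a difference of 0.01 from ACO to ASO.

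The β chains went apart. Lamb1, the β1 chain of many laminins of vessels and the brain surface, had 1751 (NCO), 1796 (ACO) and 1371 (ASO), so that ASO stood at -0.38 against ACO. Lamb2, the β2 chain of vascular and synaptic laminins, had 330.2, 318 and 402, with ASO 0.30 above ACO. Lamb3, an epithelial β chain, was well above background on no array.

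The α chains carry the sites that cells bind. Lama5, an α5 chain made by endothelium, had 432, 438 and 350.1 on NCO, ACO and ASO, with ASO at -0.29 against ACO. Lama1, typical of the pial basement membrane, had 515, 591 and 505, so that the peptide array was highest, at 0.18 above NCO and with ASO -0.21 from it. Lama2, the α2 chain laid down by astrocytes and muscle, had 601, 674 and 677, and both peptide-injected arrays exceeded NCO, by 0.15 and 0.16. Lama4, another endothelial chain, had 183, 152 and 169.6, and the epithelial chain Lama3 had 82.1, 67.9 and 85.3. Both were lowest on ACO, at -0.20 and -0.16 against NCO. Lamc3, the γ3 chain, had 117, 125 and 125.

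Of the 22 collagens outside these classes 9 were measured, and for 2 of them ASO exceeded both other arrays by 1.2-fold or more. Col16a1, a fibril-associated collagen, had a signal of 1008 (NCO), 1061 (ACO) and 1464 (ASO), with ASO 0.45 above ACO and 0.52 above NCO. Col25a1 is a membrane-bound collagen of neurons whose shed part is known to bind amyloid β in plaques. It had 516, 588 and 749, in the order NCO, ACO, ASO, and ASO was 0.33 above ACO and 0.50 above NCO. Col9a2 and Col22a1 were at least 1.2-fold lower in 1 comparison each, from NCO to ACO and from ACO to ASO. Col9a2, a cartilage fibril-associated collagen, had 386, 286 and 338, and was the lowest of all members from NCO to ACO at -0.38. Col22a1, known from tendon junctions, had 248, 283 and 221, with ASO at -0.29 against ACO.

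The remaining measured members of this class were Col6a1, Col7a1, Col8a2, Col20a1 and Col23a1, and none of them was 1.2-fold apart between any arrays. Col6a1, a chain of the beaded filaments near vessels, had 1801, 1793 and 1716 on NCO, ACO and ASO. Col8a2, a network-forming collagen, came closest to the fold at 0.26 from NCO to ACO, with 92.8, 121 and 119. Over all 32 members, 11 were in the order NCO, ACO, ASO from lowest to highest, the order of 18.4% of all genes, and 6 were lowest on ASO and highest on ACO, the order of 23.4% of all genes.

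Of the 20 members not measured on all arrays, 6 were well above background on some. Col4a4, a minor collagen IV chain, and Col9a1, a partner of Col9a2, were so on ASO alone. Their dim signals there were 1.18-fold and 1.28-fold those on NCO as plain ratios. As log2 differences of the kind used for measured members these were 0.10 and 0.18, both under 1.2-fold. The remaining Col4a4 probes, well above background on no array, stood at -0.08 and -0.32 from NCO to ASO. The remaining Col9a1 probe, as dim, stood at 0.14. Both genes were picked out by passing on ASO, so these values set no lower bound. Col6a2, the collagen VI chain next to Col6a1, and Col14a1, a fibril-associated collagen, passed on NCO and ASO. Col5a2 and Col19a1 passed on ACO by their signal to noise score, though neither had its highest signal there. Col19a1 had 53.4, 46.0 and 41.7 on NCO, ACO and ASO. The other 14 were not well above background on any array. They were Col4a3, Lamb3, the fibrillar Col24a1 and Col27a1, the multiplexin Col15a1, and Col6a4, Col6a6, Col8a1, Col9a3, Col10a1, Col12a1, Col13a1, Col17a1 and Col28a1.

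A second probe gave a partial check of 5 members, and it went the same way in 3 of 5 from NCO to ACO, 3 of 5 from ACO to ASO and 4 of 5 from NCO to ASO. For Col18a1 both probes rank the arrays NCO, ACO, ASO, the dimmer with 68.3, 96.4 and 107. For Col16a1 the dimmer probe had 228, 328 and 319, so it was also higher on ASO than on NCO, by 0.41, but it was 0.44 higher on ACO too and -0.03 from ACO to ASO. For Col25a1 the dimmer probe had 147, 116 and 127 and lay at -0.16 from NCO to ASO, against 0.50 for the brighter probe. With the mean of both probes the Col25a1 difference from NCO to ASO was 0.17, and from ACO to ASO both Col16a1 and Col25a1 were 0.21 higher, all under the 1.2-fold mark. The Col20a1 probes differed, the dimmer being 0.37 higher on ASO than on NCO and the brighter 0.02. The Lama2 probes differed by 0.01 and 0.16 in that comparison. Collagen I, collagen III and Lamb1 had 1 measured probe each, at 1 spot.

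**Figure D4:**
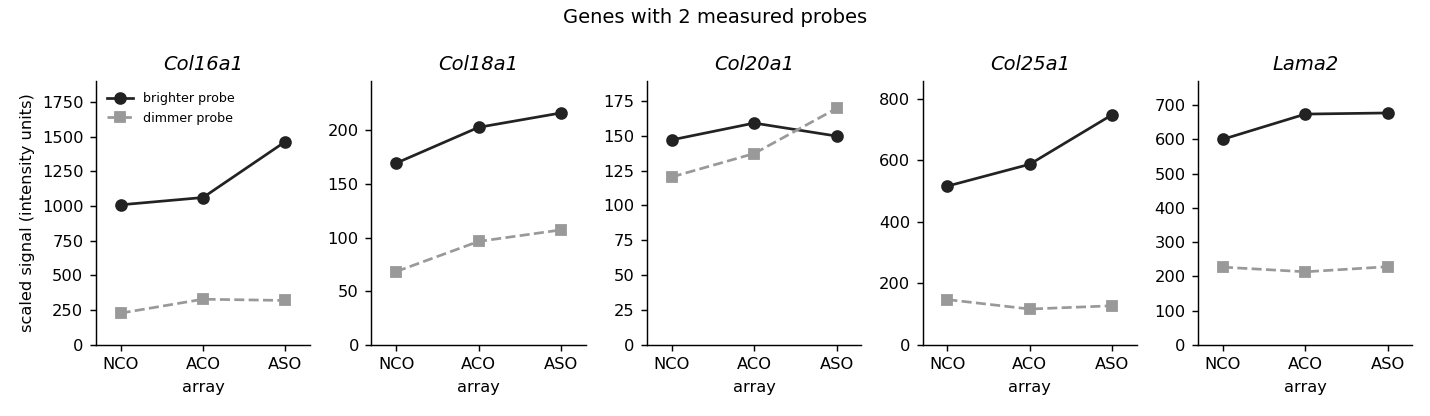
Scaled signal on each array for the brighter (solid line, circles) and dimmer (dashed line, squares) probe of the 5 members with 2 measured probes, each panel on its own axis from 0. The Col18a1 lines climb together, whereas the Col25a1 lines part, with 516, 588 and 749 against 147, 116 and 127.

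Signal also varied across the array surface, and some members lay in places that differed between arrays. Measured gene spots within 5 rows and 5 columns of Col1a2 were 0.15 higher on ASO than on ACO at the median, and those around Col1a1 0.11 higher. After subtraction of the surroundings Col1a1 was 0.49 higher on ASO than on ACO and Col1a2 0.18, so the first stayed past 1.2-fold and the second did not. Spots around Lama5 were -0.14 and around Lamb1 -0.10 in the same comparison. Lama5 then stood at -0.14, under the fold, and Lamb1 at -0.28 against ACO and -0.19 against NCO. Col16a1 at 0.46 and Lamb2 at 0.33 kept their size in ASO minus ACO, and Col25a1 was 0.25.

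Genes of the same pathway were read from lists of matrix partners, by counts and medians only. Of all genes 46.6% were higher on ASO than on ACO and 46.9% on ASO than on NCO, with medians of -0.02 in both. Of 23 measured genes for collagen folding, modification and processing, 15 were higher on ASO than on ACO, with a median of 0.12, and 17 exceeded NCO on ASO, the median being 0.11. Leprel4, an endoplasmic reticulum protein of the collagen hydroxylation machinery, had 460.1, 572 and 949 on NCO, ACO and ASO, and was 0.97 higher on ASO than on NCO. Glt25d1, which adds galactose to collagen hydroxylysine, had 511, 536 and 776 and was 0.56 higher. Fkbp14, a prolyl isomerase of collagen folding, went the other way with 679, 577 and 413, at -0.66. Plod2, a lysyl hydroxylase, was at -0.19.

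Of 9 measured basement membrane partners, 3 were higher on ASO than on ACO, with a median of -0.03. Sparc, a secreted collagen-binding protein, had 28402, 26363 and 41115 on NCO, ACO and ASO, and was 0.53 higher on ASO than on NCO. Hspg2, the proteoglycan perlecan, was 0.20 higher on ASO than on NCO. Nid1, the nidogen that links laminin to collagen IV, was at -0.18 and Fbln2, a fibulin, at -0.14.

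Of 13 measured receptors for collagen and laminin, 7 were higher on ASO than on ACO, with a median of 0.06. In ASO minus NCO, Lair1, an inhibitory collagen receptor of immune cells, stood at 0.35 and Dag1, the laminin receptor dystroglycan, at 0.28. The laminin-binding Itga7 stood at -0.14. The collagen-binding integrin chain Itga11 had 402, 562 and 329 on NCO, ACO and ASO, and so was highest on the peptide array.

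The medians of the lists for turnover and fibril assembly lay near 0 in the comparisons with the oil array. Of 9 measured genes for matrix degradation and its inhibitors, 4 were higher on ASO than on ACO, with a median of -0.04. In ASO minus NCO its ends were Plat, the tissue plasminogen activator, at 0.26 and Timp3, an inhibitor of metalloproteinases, at 0.15, against Ctsk, a collagen-cutting protease, at -0.21 and Fap, a fibroblast protease, at -0.16. Plat had 299, 397 and 367 on NCO, ACO and ASO, and Fap had 225, 298 and 195. Both were thus highest on the peptide array, and from ACO to ASO they stood at -0.10 and -0.50. Of 8 measured fibril companions, 3 were higher on ASO than on ACO, with a median of -0.09. Bgn and Fmod, small proteoglycans, stood at 0.10 and 0.09 in ASO minus NCO, and Lum, another, and Fn1, fibronectin, at -0.13 and -0.10.

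Transforming growth factor β is a well known inducer of collagen genes. Of 14 measured ligands, receptors and targets, 12 were higher on ACO than on NCO, with a median of 0.10. Beside this stood 51.9% of all genes and a median of 0.01. From ACO to ASO 6 of the 14 were higher, with a median of -0.04, beside 46.6% and -0.02 for all genes. Whether this list bears on the collagen genes was not tested. In ASO minus NCO the receptor Tgfbr1 stood at 0.44 and the signal carrier Smad2 at 0.23. The target Ctgf was at -0.14 and the ligand Tgfb3 at -0.12. From ACO to ASO, Tgfbr1 stood at 0.33, Smad2 at 0.02, Ctgf at -0.14 and Tgfb3 at -0.16.

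Markers of cell types the tissue could hold were set beside these results. Of all genes 51.9% were higher on ACO than on NCO, 46.6% on ASO than on ACO and 46.9% on ASO than on NCO. The medians of all genes were 0.01, -0.02 and -0.02 in that order. Of 19 leptomeningeal and perivascular fibroblast markers 14 were measured; 10 of the 14 were higher on ASO than on ACO and 10 on ASO than on NCO, with medians of 0.06 and 0.09. Their summed signals were 7503 (NCO), 8012 (ACO) and 8659 (ASO), and Slc47a1, Foxd1, Cdh1, Asgr1 and Dpep1 were not measured. Within those sums Igfbp2 had 1385, 1721 and 1838 on NCO, ACO and ASO, and Mgp had 1148, 1217 and 1506. From NCO to ASO 4 of the 14 were lower. Of 15 pericyte and smooth muscle markers 12 were measured and 10 of these were higher on ASO than on ACO, with a median of 0.11 and sums of 8653, 8852 and 9468; Pdgfrb, Kcnj8 and Des were not measured. Their part in the fibrillar collagen result was not tested.

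Endothelial markers lay on both sides of 0. Of 17, 13 were measured, 8 were higher on ASO than on ACO with a median of 0.10, and the sums were 25852, 24857 and 25540, with Pecam1, Tek, Emcn and Tie1 not measured. Choroid plexus markers followed another order. Of 15, 13 were measured and 12 were higher on ACO than on NCO with a median of 0.37, while 2 were higher on ASO than on ACO with a median of -0.17. From NCO to ASO 12 of the 13 were higher, with a median of 0.18. Their sums were 44662, 44616 and 42763, and Tmem72 and Lmx1a were not measured. Within those sums Ttr, the 1 marker below NCO on ACO and on ASO, had 20092, 14595 and 15674. Microglial markers had a median further from 0 than any matrix list in ASO minus ACO, with 13 of 14 higher on ASO than on ACO, a median of 0.66 and sums of 37830, 32554 and 43876. Within those sums Itgam had 8531, 3764 and 4795 on NCO, ACO and ASO. Of 9 astrocyte markers 8 were higher on ASO than on ACO, with a median of 0.12. Of the 14 hippocampal neuron markers 6 were higher on ASO than on ACO, and the median was -0.18. All 9 oligodendrocyte markers were lower on ACO than on NCO, with a median of -0.19, and 6 were higher on ASO than on ACO, with a median of 0.08. Of 5 measured blood markers 4 were higher on ASO than on ACO, with a median of 0.18. Of 5 measured markers of the neighbouring thalamus and habenula all were higher on ACO than on NCO, with a median of 0.13. The part of these cell types in the collagen and laminin differences was not tested.

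**Figure D5:**
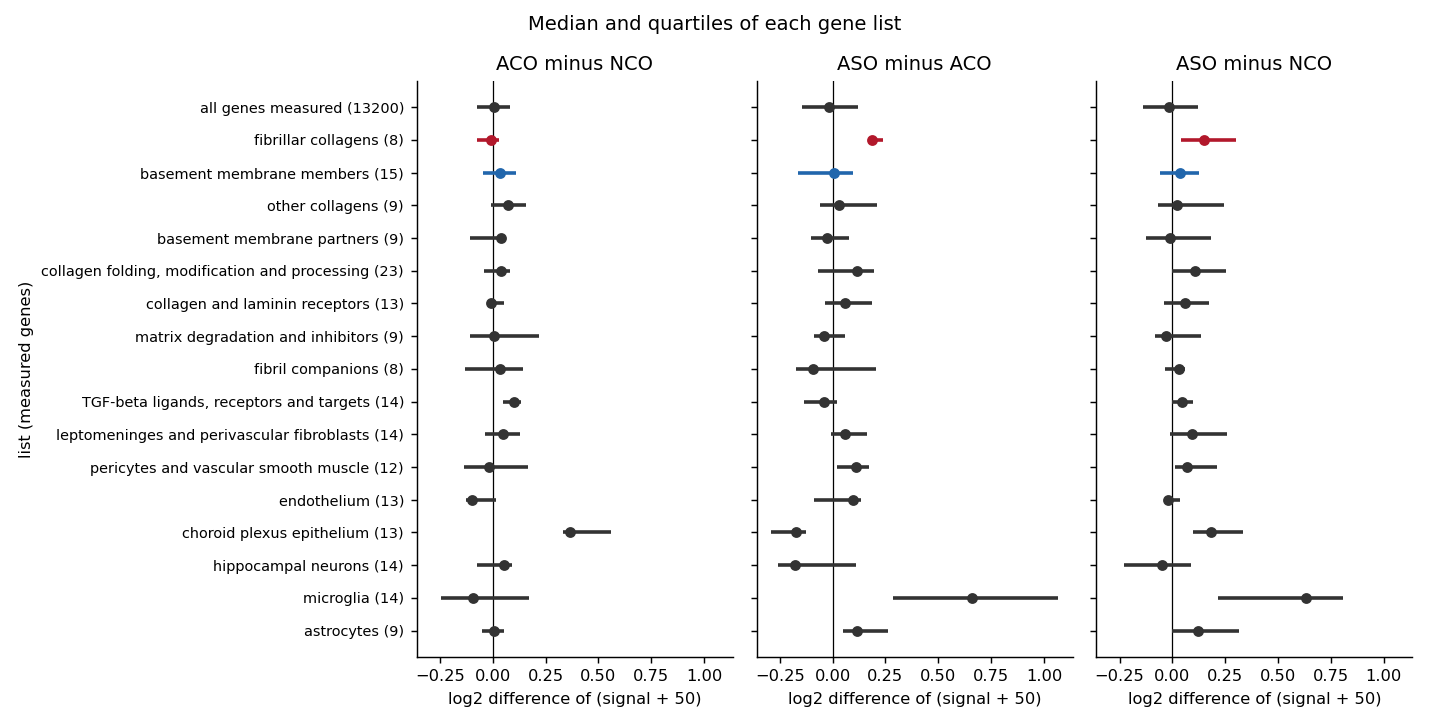
Median (point) and quartiles (bar) of log2 differences of (signal + 50) over the measured genes of each list, whose number is in brackets. In ASO minus ACO the fibrillar collagens have a median of 0.19 and the basement membrane members 0.01, and the microglial list reaches 0.66.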

How the data were processed

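Foreground and local background intensities of 1-colour Agilent mouse arrays were deposited unnormalized, as scanned by the authors at 532 nm on a GenePix 4000B and quantified with GenePix Pro 6.1.0.4, per the file headers. That software also gave the deposited signal to noise score, percent of saturated pixels and mark of each spot. The submitters' processing notes name Agilent Feature Extraction, but the files used here held GenePix columns. The authors' deposited table gives linear intensities for 475 probes.

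The background was corrected by normexp (limma 3.58.1, R 4.3.3) on all 45220 spots of an array. The 43020 gene spots were brought to the same 75th percentile (factors 1.06, 0.950 and 0.992 for NCO, ACO and ASO), 50 was added, log2 was taken and spots of a probe were averaged. Probes needed a score of 2.6 or more for signal to noise, under 50% saturated pixels and no bad-spot mark on all 3 arrays. A gene took its brightest such probe. Later steps used pandas 2.3.3, numpy 2.4.6 and matplotlib 3.10.9 in Python 3.11.15, and the computation of differences and counts was tested on simulated data.

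Groups came from the labels. Their protocol calls 1 injected group by a name no sample carries, which was read as ASO, described as injected in the design text. With 1 array per group there was no replicate check and no test, so genes were counted at 1.2-fold and 2-fold. The number of arrays limits the precision. The members and all lists were chosen with earlier results of these data known. A basement membrane member is counted but not reported here by name. The other members were accounted for, with those of the fibrillar, basement membrane and collagen VI classes given in full and others named when 1.2-fold apart; each partner list had its 2 highest and 2 lowest genes in ASO minus NCO named. In all, 13 alternatives were planned, and 1, the subtraction of surrounding measured spots, was chosen after seeing the data. RefSeq names (GRCm38.p6) were used for gene order and current symbols only.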

Additional observations from a re-analysis of the deposited data

How the results depend on the processing

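No paired analysis was possible because each group had 1 array. Over the 14 alternatives no member given as at least 1.2-fold apart changed sign in that comparison. Genes of the partner and marker lists are not covered by this. The fibrillar median stayed above 0 in both comparisons with ASO, at 0.10 to 0.23 in ASO minus ACO, while the basement membrane median crossed 0, at -0.03 to 0.01. The gap between these classes ran from 0.10 to 0.23 in ASO minus ACO and from 0.03 to 0.15 in ASO minus NCO. Counts of members at least 1.2-fold apart moved more. From ACO to ASO the number higher was 3 in place of 5 with the mean over probes, with surrounding spots subtracted and with surrounding measured spots subtracted. The number lower was 2 with the foreground mean and 1 with a pseudocount of 200, in place of 4. From NCO to ASO the number higher ran from 4 to 8, in place of 6. It was 8 with plain subtraction of background and with a pseudocount of 16. Among the settings that gave 4 were the foreground mean and a pseudocount of 200. The number lower in that comparison was 1 with either subtraction of surroundings, in place of 3. With no filter on dim probes it was 5, but there all 52 members entered rather than 32. From NCO to ACO the number higher was 1 in place of 0 with plain subtraction of background and with a pseudocount of 16, and the number lower was 1 in place of 2 with a pseudocount of 200. With a pseudocount of 200 Col11a2 stood at -0.20 in ACO minus NCO and Col18a1 at 0.17 in ASO minus NCO, both under 1.2-fold, and with the foreground mean Col22a1 stood at -0.18 in ASO minus ACO. Members near background, such as Col2a1 and Lama3, have differences held small by the pseudocount, and a single spot carried all but 1 member.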

Other observations

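The authors' deposited table holds 3 of the members, all among those that differed most between NCO and ACO. It gives Col9a2 at 341.8, 255.2 and 290.1 and Col11a2 at 123.8, 85.5 and 107.1 on NCO, ACO and ASO, both lowest on ACO as in the scaled signals. The deposited table comes from the same 3 arrays, so this shared order is no independent check. It gives Col8a2 at 61.8, 96.5 and 84.7, or 0.64 higher on ACO than on NCO as a plain log2 ratio. The scaled signals of 92.8, 121 and 119 gave 0.26 with 50 added. The deposited values also differ from the scaled signals in background correction and scaling.

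Col26a1 carries another name on the array and was reached only through its current RefSeq symbol, so it was no member. Its log2 difference was -0.30 from NCO to ACO, -0.06 from ACO to ASO and -0.36 from NCO to ASO.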
